A study of Mus musculus with 6 samples.

Results

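The expression of 34 leukocyte and macrophage genes was examined in islets isolated from 3 db/db and 3 db/m mice. The genes were taken from a fixed list of names: 4 genes of all leukocytes, 22 of macrophages, monocytes and neutrophils, 5 of T cells and 3 of B cells. Of the 44713 genes in the deposited table, 33 carried a name on the list, and Adgre1 was found under its older symbol Emr1, so that all 34 genes had a value. The rule is the names alone and uses no measured value. The mice were 10-week-old males. Their stock is named BKS.Cg-Dock7m+/+Leprdb/Nju in the methods, whereas the sample labels give the strain C57BL/6. The db/db mice (genotype Lepr-/- in the labels) carry the mutation of the leptin receptor gene Lepr on both copies and develop obesity with diabetes. The db/m mice, labelled wild type, were non-diabetic littermates that carry 1 copy of the Lepr mutation by the name of the cross. Islets had been freed by collagenase and purified on a density gradient, and the RNA of each mouse, depleted of ribosomal RNA, was sequenced without a cell sort.

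Islets hold a small resident population of macrophages, which take up debris, present antigen and release cytokines near the β-cells. Macrophages depend on the receptor Csf1r and on the transcription factor Spi1 (PU.1), and they are recognized by the surface protein F4/80 (Adgre1), the lysosomal protein Cd68 and the secreted proteins lysozyme and C1q. Monocytes enter tissue from blood through the chemokine receptor Ccr2. T and B cells are scarce in normal islets and abundant in blood, in lymph nodes of the pancreas and in autoimmune insulitis. Macrophage number in islets has been described to rise in obesity and type 2 diabetes. In RNA of a whole islet preparation, fewer leukocytes and less RNA per leukocyte cannot be told apart.

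The libraries held 15641797 to 20614531 counted reads each, so that 3 counts, taken as the smallest level a library could show, were worth 0.146 to 0.192 CPM (counts per 1000000 counts of the library). Genes of pancreatic acinar cells, which make the digestive enzymes, took 73.8% to 79.5% of the counts in db/db mice and 56.1% to 72.3% in db/m mice. The lowest share, 56.1%, was that of db/m replicate 1, which stood apart from the other 5 libraries. Insulin RNA, which marks islets, was present in every library, with 22050 to 406200 counts of Ins2. In db/m replicate 1 the 13 β-cell genes listed took 4.43% of the counts, against 0.782% and 0.829% in the other db/m mice and 0.152% to 0.647% in the db/db mice. The TMM factors of edgeR, which correct for such differences in make-up, ran from 0.605 in db/db replicate 1 to 1.75 in db/m replicate 1. Unless stated otherwise, levels of single genes are given below as CPM after this correction.

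Leukocyte RNA was present in every library, at a low level that differed more between mice of the same group than between the groups. The 34 genes together had 1026, 594 and 1834 counts in db/db replicates 1, 2 and 3 and 2790, 391 and 237 counts in db/m replicates 1, 2 and 3. Relative to the whole library this was 49.8, 35.2 and 113 CPM in the db/db mice, and 178, 24.2 and 12.5 CPM in db/m islets. The db/db mean of 66.1 ± 41.4 CPM (SD, n = 3) was close to the db/m mean of 71.7 ± 92.6 CPM (SD, n = 3). The highest db/m mouse was 14.3-fold above the lowest, and the highest db/db mouse 3.21-fold above the lowest. The groups overlapped, since on this scale db/m replicate 1 exceeded all db/db mice while db/m replicates 2 and 3 lay below all of them. Relative to counts outside acinar genes, db/db replicate 3 was highest, with 437 CPM against 406 CPM in db/m replicate 1. The log2 ratio of the group means was -0.12 on the library scale. It was 0.61 relative to counts outside acinar genes and 0.81 with TMM-normalized libraries. On the library scale it was 1.85 without db/m replicate 1, 0.05 without db/db replicate 1 and 0.18 without db/db replicate 2. The sign thus depended on the denominator and on which mice were included.

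**Figure D1:**
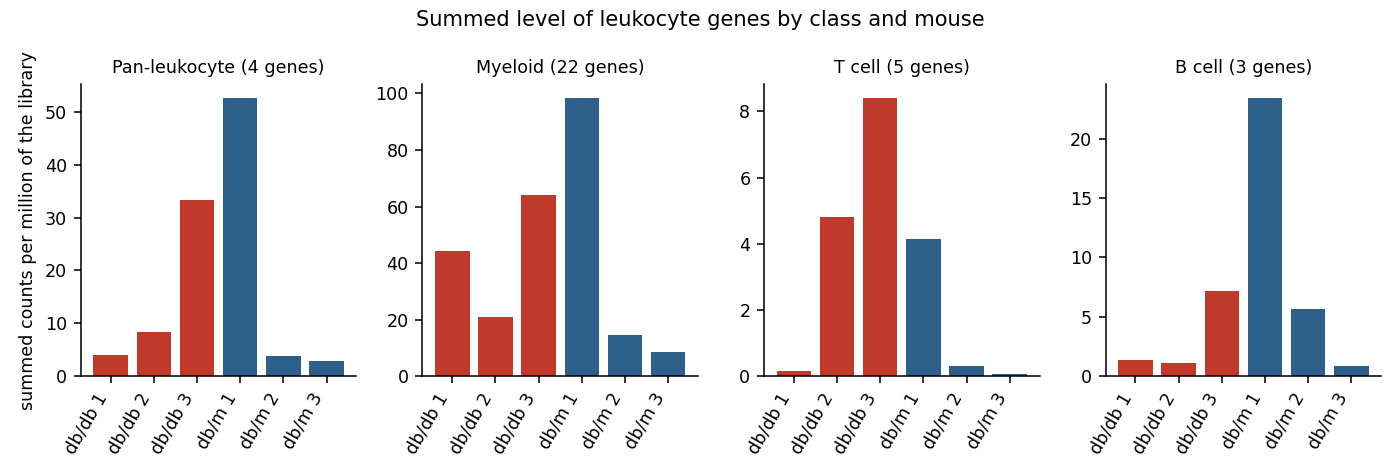
Summed CPM of the whole library (vertical axis, from 0) on the pan-leukocyte, myeloid, T-cell and B-cell genes, with 1 bar per mouse (red, db/db; blue, db/m). The tallest bar is that of db/m replicate 1 for pan-leukocyte (52.6), myeloid (98.3) and B-cell genes (23.4), and that of db/db replicate 3 for T-cell genes (8.39).

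All 34 genes had at least 1 count in at least 1 mouse, and 18 had a count in every mouse. The number of genes without a single count was 7, 3 and 0 in db/db replicates 1, 2 and 3 and 4, 5 and 11 in db/m replicates 1, 2 and 3. By TMM-normalized level, 15 genes were highest in db/m replicate 1 and 13 in db/db replicate 3. None of the 34 was highest in db/db replicate 2 or db/m replicate 3.

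Of the 34 genes, 19 had enough reads to pass edgeR's filterByExpr: 4 of 4 pan-leukocyte, 10 of 22 myeloid, 3 of 5 T-cell and 2 of 3 B-cell genes. By the quasi-likelihood test of edgeR, 0 of the 19 passed an adjusted p of 0.05, which 0.619% of the 12760 tested genes did. Before adjustment 2 genes had p under 0.05, Lyz2 (higher in db/db islets) and Cd79a (lower), against 14.9% of all tested genes. DESeq2 gave a p for 18 of the 19 and none for Coro1a. With it 0 genes had an adjusted p under 0.05 (5.55% of all genes), and 1, Cd79a, had an unadjusted p under 0.05 (16.4% of all genes). At an unadjusted p under 0.05 there was 1 gene with library size in place of TMM factors (19.1% of all genes), 1 in a fit blocked on replicate number (8.84% of all genes) and 9 of 34 with every gene of at least 1 count tested (12.4% of all genes). In edgeR the fold change was above 1 for 14 of the 19 genes and for 49.9% of all tested genes. The median log2 fold change of the 19 genes was 0.66, beside a median of -0.00093 over all tested genes. Scaled by library size instead of TMM factors, the 19 genes had a median of -0.22 and all genes one of -0.59. The levels of the groups did not overlap for 1 of the 19 genes (Itgax, higher in db/db islets), where 8.53% of all tested genes were higher and 12.6% lower without overlap. This separation held after TMM scaling only, since as CPM of the library Itgax was 1.28 in db/m replicate 1 and 0.485 to 1.23 in db/db islets.

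The spread between mice of the same group was wide for these genes. The biological coefficient of variation of edgeR, a measure of the relative spread between replicates, had a median of 0.737 over the 19 genes and of 0.319 over all tested genes. Genes with few reads vary more, and the trend that edgeR fitted for genes of the same level gave a median of 0.483 at the levels of the 19 genes. The coefficient lay above this trend for 18 of the 19 genes and for 32.1% of all tested genes. Itgax was the exception, with 0.508 against a trend of 0.538. On the log2(CPM + 1) scale the median SD of the 19 genes was 0.63 among db/db mice and 0.86 among db/m mice, against 0.29 and 0.32 over all tested genes.

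**Figure D2:**
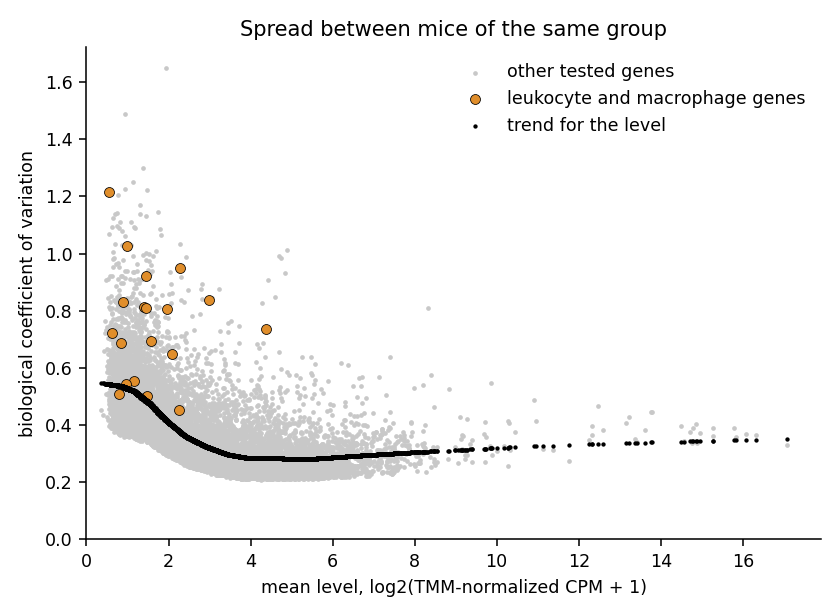
Biological coefficient of variation (vertical axis) against the mean level, log2(TMM-normalized CPM + 1), of each tested gene (grey), of the 19 leukocyte and macrophage genes (orange) and of the fitted trend (black). All but Itgax of the orange points lie above the trend, with a median of 0.737.

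The promoters of these genes were searched for GAGGAAG, the core of the sites that PU.1 is known to bind. RefSeq promoter windows of GRCm38.p6, from 250 bases before to 50 bases after the transcription start, were at hand for 25 of the 34 genes. Either strand held the 7 letters in at least 1 window of 7 of the 25 genes (28.0%) and of 15.4% of all 27025 genes. The matches of the genes that passed the filter are shown with their surroundings, read 5′ to 3′ on the strand of the match and with the matched letters in capitals.
Laptm5, chr4:130913266-130913294, reverse strand: agaacaaaaaaGAGGAAGccacaggctgc
C1qc, chr4:136893091-136893119, forward strand: tgtgccaaaatGAGGAAGtgtctgccgtc
Itgam, chr7:128062545-128062573, forward strand: gttttctcccgGAGGAAGgctacagaggg
Itgam, chr7:128062660-128062688, reverse strand: acagacactttGAGGAAGccaccaaggcc
Lck, chr4:129573799-129573827, forward strand: aggcacttaggGAGGAAGgctgtgtgtga
Matches were also present for Mrc1, Ctss and S100a8, which did not pass the filter. A match describes these letters alone, and binding of PU.1 was not measured here. A link between the matches and the levels of the genes in the mice was not tested.

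Ptprc encodes the phosphatase CD45, found on all leukocytes, and lies at chr1:138062861-138175708 (GRCm38, GENCODE M21) on the reverse strand. It had 27, 65 and 292 counts in db/db replicates 1, 2 and 3 and 377, 24 and 17 in db/m replicates 1, 2 and 3. Its normalized levels were 2.17, 3.89 and 19.6 CPM in db/db islets, against 13.8, 1.40 and 0.920 CPM in db/m islets. A single mouse of each group was high, db/db replicate 3 and db/m replicate 1, and the groups overlapped. The fitted log2 difference was 0.65 with a standard error of 1.03 (adjusted p = 0.804, edgeR).

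Laptm5, a lysosomal membrane protein of blood cells, had 1.93, 2.15 and 6.72 CPM in db/db islets, against 5.76, 0.699 and 0.217 CPM in db/m islets. Coro1a, an actin-binding protein of leukocytes, had 1.69, 1.79 and 8.74 CPM in db/db islets, against 10.3, 0.175 and 0.650 CPM in db/m islets. For both genes the same mouse of each group as for Ptprc was high. Lcp1, the actin-bundling protein L-plastin, did not follow this order, with 0.883, 0.658 and 1.28 CPM in db/db islets, against 0.257, 1.34 and 1.19 CPM in db/m islets. It was lowest in db/m replicate 1, the mouse in which the other pan-leukocyte genes were high. Lcp1 shares 8.17% of its stretches of 50 bases with other annotated genes, mostly with Gm15628 on the opposite strand, so that its counts are less certain. Log2 fold changes were 0.66 for Laptm5, 0.11 for Coro1a and 0.04 for Lcp1 (adjusted p = 0.784, 0.975 and 0.988 from edgeR).

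Lyz2, the lysozyme of macrophages and other myeloid cells, was the most abundant of the 19 tested genes per kilobase of exon in both groups. It lies at chr10:117277331-117282321 on the reverse strand, next to Lyz1. It had 617, 153 and 584 counts in db/db islets, against 450, 76 and 13 in db/m islets. The normalized levels were 49.5, 9.15 and 39.3 CPM in db/db islets, against 16.5, 4.43 and 0.704 CPM in db/m islets. The db/db replicates 1 and 3 lay above all db/m mice, whereas db/db replicate 2 lay below db/m replicate 1. The db/db mean was 32.7 ± 21.0 CPM (SD, n = 3), the db/m mean 7.22 ± 8.27 CPM (SD, n = 3). The log2 fold change came to 2.16 with a standard error of 0.91 (edgeR, unadjusted p = 0.0422, adjusted p = 0.312). Over the alternative settings the adjusted p lay between 4.9e-04 and 0.577, and it was under 0.05 only with every gene of at least 1 count tested. In that fit the log2 fold change was nearly the same, 2.18, and the standard error was smaller, 0.44, on the same mice. With library size in place of TMM factors the log2 fold change was 1.13, while a block for the replicate number gave 2.49.

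Lyz2 made up 60.1% of the counts on the 34 genes in db/db replicate 1 and 5.49% in db/m replicate 3, with 25.8%, 31.8%, 16.1% and 19.4% in db/db replicates 2 and 3 and db/m replicates 1 and 2. In db/db replicate 1 it was thus high while Ptprc, at 2.17 CPM, was close to its level in the low mice. Lyz1, the closely related lysozyme known from Paneth cells of the gut, had 9, 1 and 6 counts in db/db islets, against 1, 4 and 0 in db/m islets and did not pass the filter. Lyz1 shares 16.1% of its 50-base stretches with other genes and Lyz2 15.4%, in each case mostly with the other lysozyme, and the way the reads on these stretches were assigned is not given in the sources used here.

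**Figure D3:**
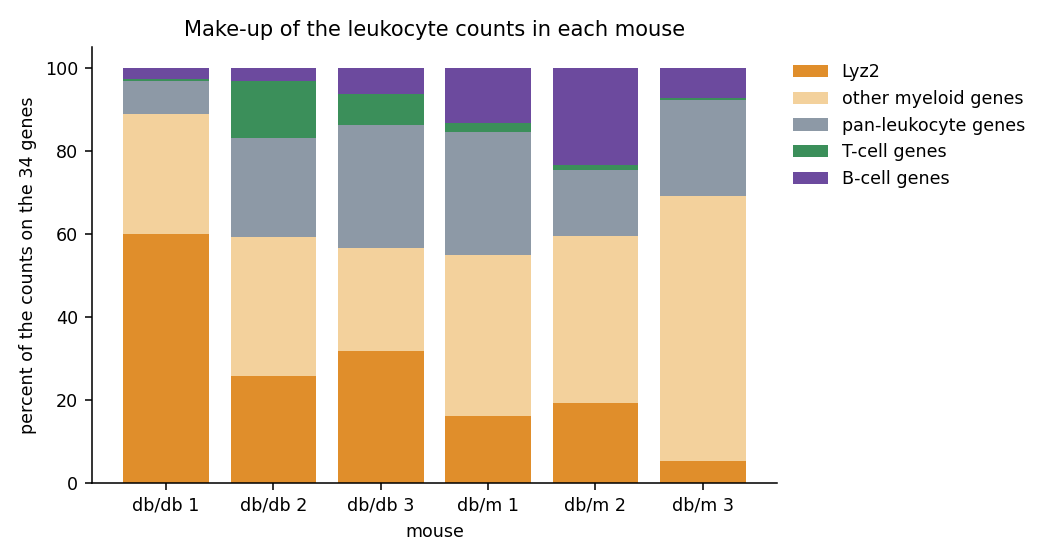
Share of the counts on the 34 genes (percent, vertical axis) that fell on Lyz2, on the other myeloid genes and on the pan-leukocyte, T-cell and B-cell genes in each mouse. Lyz2 took 60.1% in db/db replicate 1, T-cell genes reached 13.6% in db/db replicate 2 and B-cell genes 23.3% in db/m replicate 2.

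The genes of the 3 chains of C1q, the complement protein that tissue macrophages secrete, lie side by side on the reverse strand of chromosome 4, from 136880129 (C1qb) to 136898803 (C1qa). C1qa had 3.85, 3.71 and 4.30 CPM in db/db islets, against 6.79, 1.40 and 2.71 CPM in db/m islets. C1qb had 4.17, 1.08 and 4.57 CPM in db/db islets, against 6.86, 2.21 and 0.704 CPM in db/m islets. C1qc had 3.61, 0.777 and 1.88 CPM in db/db islets, against 3.01, 0.291 and 0.162 CPM in db/m islets. The db/db mice hardly differed from each other in C1qa, with an SD of 0.311 CPM, and all of them lay between db/m replicate 1 and the other db/m mice. C1qa and C1qb were the genes next to Lyz2 in level per kilobase in both groups, with 3.80 ± 0.299 and 3.01 ± 1.76 CPM per kilobase (SD, n = 3) in db/db islets, against 3.49 ± 2.70 and 3.0 ± 2.95 (SD, n = 3) in db/m islets. The levels of C1qa and C1qb did not differ beyond this spread in either group. Log2 fold changes were 0.11 for C1qa, -0.02 for C1qb and 0.80 for C1qc (adjusted p = 0.939, 0.994 and 0.737 from edgeR).

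Among the receptors of macrophages, Csf1r, the receptor for the growth factors Csf1 and Il34, had 10, 8 and 45 counts in db/db islets, against 140, 7 and 12 in db/m islets. Its normalized levels were 0.803, 0.478 and 3.03 CPM in db/db islets, against 5.14, 0.408 and 0.650 CPM in db/m islets (log2 fold change -0.55, standard error 0.98, adjusted p = 0.830 from edgeR). Cd14, the co-receptor for bacterial lipopolysaccharide, had 1.77, 0.777 and 2.42 CPM in db/db islets, against 1.5, 0.408 and 0.487 CPM in db/m islets (log2 fold change 1.01, standard error 0.67, adjusted p = 0.514 from edgeR). Csf1r was thus highest in db/m replicate 1 and Cd14 in db/db replicate 3, and both overlapped between the groups. Csf1r shares 14.3% of its 50-base stretches with other genes, chiefly with Hmgxb3, which overlaps it on the other strand.

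The other macrophage receptors did not pass the filter. Adgre1 (F4/80) had 3, 3 and 7 counts in db/db islets, against 21, 6 and 0 in db/m islets. Cx3cr1, the receptor for fractalkine, had 0, 5 and 12 counts in db/db islets, against 79, 9 and 11 in db/m islets. Ccr2, the receptor that draws monocytes from blood, had 3, 7 and 14 counts in db/db islets, against 10, 3 and 0 in db/m islets. Mrc1 (CD206) and Cd163, scavenger receptors of resident macrophages, had 0, 6 and 10 and 0, 0 and 2 counts in the db/db mice. In the db/m mice Mrc1 had 27, 1 and 2 counts and Cd163 had 35, 5 and 0. Each of these genes except Ccr2 was highest in db/m replicate 1.

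Itgax, the integrin chain CD11c of dendritic cells and some macrophages, had 10, 14 and 20 counts in db/db islets, against 20, 2 and 10 in db/m islets. After normalization these were 0.803, 0.837 and 1.34 CPM in db/db islets, against 0.734, 0.116 and 0.541 CPM in db/m islets. The lowest db/db mouse lay above the highest db/m mouse by less than the value of 3 counts in a library (log2 fold change 1.06, standard error 0.68, adjusted p = 0.502 from edgeR). Itgam, the related integrin chain CD11b of monocytes, macrophages and neutrophils, had 0.642, 0.957 and 1.61 CPM in db/db islets, against 1.65, 0.116 and 0.0541 CPM in db/m islets (adjusted p = 0.763 from edgeR). Itgam is an uncertain entry, because 66.3% of its 50-base stretches are shared with other gene models. The most are shared with Gm49368, a gene model on the same strand that overlaps Itgam.

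Tyrobp (DAP12), the adaptor that passes on signals of activating receptors of myeloid and natural killer cells, had 1.85, 0.419 and 1.08 CPM in db/db islets, against 1.06, 0.116 and 0.217 CPM in db/m islets. Its log2 fold change came to 1.17 with a standard error of 0.86 (adjusted p = 0.558, edgeR). Fcer1g, the γ-chain of Fc receptors, had 4, 4 and 5 counts in db/db islets, against 29, 0 and 3 in db/m islets. Cd68, a protein of macrophage lysosomes, had 2.17, 0.478 and 1.68 CPM in db/db islets, against 3.12, 1.92 and 1.41 CPM in db/m islets, and with Csf1r, C1qb, Cd79a and Cd79b it was among the 5 tested genes with a log2 fold change under 0 (-0.59, standard error 0.60, adjusted p = 0.672 from edgeR). Cd68 varied less among the db/m mice than Ptprc, Lyz2 or Csf1r did, and in db/m replicate 3, where those were near their lowest, it still had 26 counts. Ctss, a lysosomal protease of antigen-presenting cells, had 8, 9 and 18 counts in db/db islets, against 43, 2 and 5 in db/m islets and was not tested.

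Spi1, the transcription factor PU.1 of myeloid and B cells, had 6, 4 and 10 counts in db/db islets, against 28, 0 and 1 in db/m islets. Aif1 (Iba1), a calcium-binding protein widely used to stain macrophages, had at most 5 counts in any mouse and 0 in 1 mouse of each group. S100a8 and S100a9 encode the subunits of calprotectin, abundant in neutrophils and young monocytes. S100a8 had 10, 0 and 17 counts in db/db islets, against 0, 1 and 0 in db/m islets, and S100a9 had 7, 0 and 25 and 0, 4 and 0. Neither calprotectin gene had a count in db/db replicate 2, db/m replicate 1 or db/m replicate 3. As CPM of the library, db/m replicate 1 had the most RNA of the 34 genes and db/m replicate 3 the least.

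**Figure D4:**
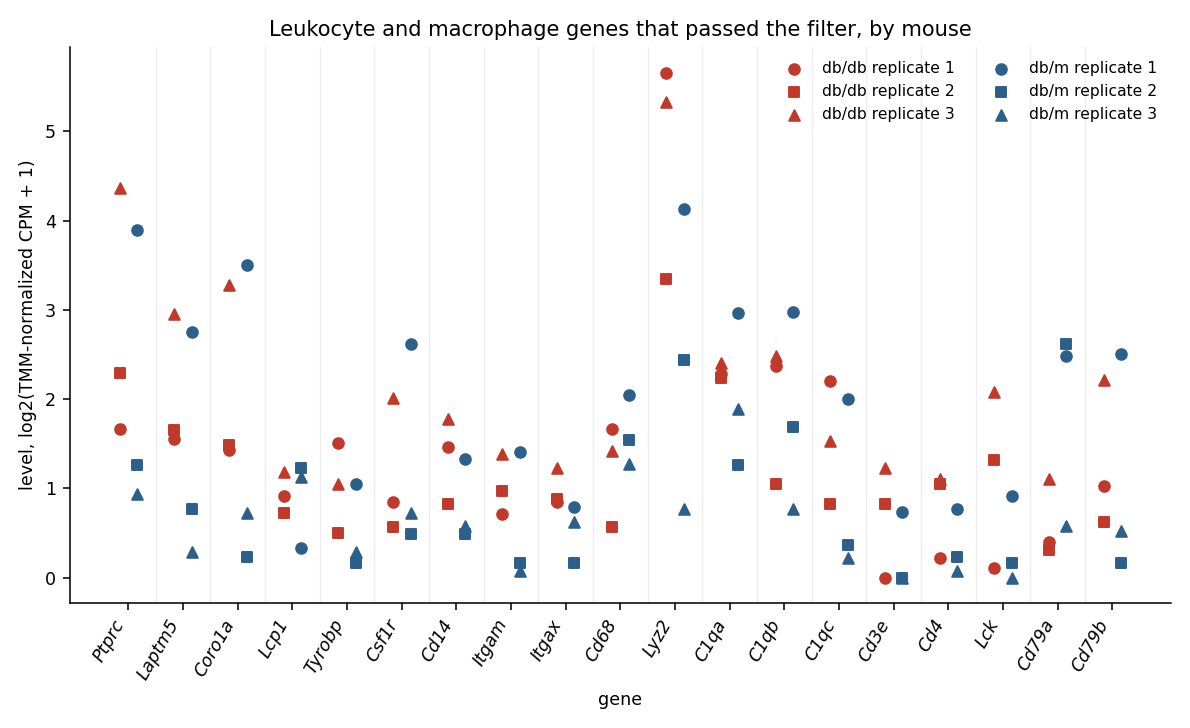
Level of the 19 leukocyte and macrophage genes that passed the filter, as log2(TMM-normalized CPM + 1), with 1 point per mouse (red, db/db; blue, db/m; shape, replicate). The highest point is db/db replicate 3 (red triangle) or db/m replicate 1 (blue circle) for 14 of the 19 genes, these are the 2 highest mice for 8, and the red and blue points are separate only for Itgax.

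The T-cell genes were nearly silent in 3 of the mice. Summed over Cd3e, Cd3g, Cd4, Cd8a and Lck there were 3, 81 and 136 counts in db/db replicates 1, 2 and 3 and 65, 5 and 1 counts in db/m replicates 1, 2 and 3. Lck, the kinase that starts signaling at the T-cell receptor, had 1, 25 and 48 counts in db/db islets, against 24, 2 and 0 in db/m islets (log2 fold change 2.16, standard error 1.24, adjusted p = 0.457 from edgeR). Cd3e, an invariant chain of the receptor, had 0, 13 and 20 counts in db/db islets, against 18, 0 and 0 in db/m islets (adjusted p = 0.628 from edgeR). Cd4, the co-receptor of helper T cells that some myeloid cells also carry, had 2, 18 and 17 counts in db/db islets, against 19, 3 and 1 in db/m islets (adjusted p = 0.550 from edgeR). These 3 genes were higher in db/db replicates 2 and 3 and db/m replicate 1 than in the remaining mice.

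The other T-cell genes did not pass the filter. Cd3g had 0, 13 and 14 counts in db/db islets and 0 in each db/m mouse, including db/m replicate 1 with its 18 counts of Cd3e. Cd8a, the co-receptor of cytotoxic T cells, had 0, 12 and 37 counts in db/db islets, against 4, 0 and 0 in db/m islets. When every gene with at least 1 count was tested, Cd3g and Cd8a had an adjusted p of 0.0197 and 0.0254 from edgeR. Together with Lyz2 and Cd79a they were the 4 of 34 genes under 0.05, where 888 of 23506 genes (3.78%) were called. Cd3g, at 0 counts in each db/m mouse, could only come out higher, and Cd8a had counts in 1 db/m mouse alone. Both calls rest on db/db replicates 2 and 3, since db/db replicate 1 had 0 counts of either gene.

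The B-cell genes Cd79a, Cd79b and Ms4a1 summed to 28, 19 and 116 counts in db/db islets, against 366, 91 and 17 in db/m islets. Cd79a and Cd79b encode the signaling chains of the B-cell receptor, and Ms4a1 encodes CD20. Cd79a had 4, 4 and 17 counts in db/db islets, against 125, 88 and 9 in db/m islets, which was 0.321, 0.239 and 1.14 CPM and 4.59, 5.13 and 0.487 CPM. Its log2 fold change came to -2.57 with a standard error of 0.89 (edgeR, unadjusted p = 0.0177, adjusted p = 0.223). The adjusted p lay between 0.00737 and 0.622 over the alternative settings. It was under 0.05 only with every gene of at least 1 count tested, where the log2 fold change was -2.56 with a standard error of 0.64. Cd79a was lower than in db/m replicates 1 and 2 in all db/db mice, and the groups overlapped through db/m replicate 3.

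The partner genes did not share the high level of Cd79a in db/m replicate 2. There Cd79b had 2 counts and Ms4a1 had 1, beside 88 of Cd79a. In db/m replicate 1 the 3 genes were near each other, with 125, 128 and 113 counts. Cd79b had 13, 9 and 54 counts in db/db islets, against 128, 2 and 8 in db/m islets, and Ms4a1 had 11, 6 and 45 and 113, 1 and 0. The log2 fold change of Cd79b was -0.04 (standard error 1.11, adjusted p = 0.991 from edgeR). Cd79a shares 8.31% of its 50-base stretches with other gene models, mostly with Gm32220, and whether its counts in db/m replicate 2 came from B cells was not tested.

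B-cell and T-cell RNA did not stand in a fixed ratio. B-cell counts were 9.33, 0.235 and 0.853 times the T-cell counts in db/db replicates 1, 2 and 3 and 5.63, 18.2 and 17.0 times in db/m replicates 1, 2 and 3. The T-cell counts behind the ratios of db/db replicate 1 and db/m replicates 2 and 3 were 3, 5 and 1. Among the mice with at least 65 T-cell counts, T-cell genes outnumbered B-cell genes in db/db replicates 2 and 3 and B-cell genes outnumbered T-cell genes in db/m replicate 1.

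The comparison between the groups rested on db/m replicate 1. Without this mouse the filter was passed by 21 of the 34 genes, the previous 19 with Cd3g and Cd8a. The mouse left out was the db/m mouse with the most RNA of these same genes. At an unadjusted p under 0.05, 15 of the 21 were then higher in db/db islets and 1 (Cd79a) was lower, against 4.61% and 6.2% of the 12984 genes tested (10.8% in either direction). Cd3e, Cd3g and Cd8a, at 0 counts in both remaining db/m mice, could only come out higher. Of the 19 genes tested in both fits, 13 were higher and 1 was lower. None of the 21 had an adjusted p under 0.05 in edgeR (0.4% of all genes), and the smallest adjusted p was 0.157, for Lyz2. Over the 19 genes tested in both fits the median log2 fold change was 2.69 without db/m replicate 1 and 0.66 with it. It was 2.64 with Cd3e, at 0 counts in both remaining db/m mice, set to a lower bound against 3 counts in a library. Without this mouse, log2 fold changes were 2.90 for Ptprc (standard error 0.90), 2.98 for Laptm5 (0.79) and 3.30 for Coro1a (0.93). They were 3.18 for C1qc (0.86) and 3.68 for Lyz2 (0.87), and adjusted p-values of these genes ran from 0.157 to 0.277 in edgeR. Smaller values came for C1qa (0.97, standard error 0.41), C1qb (1.17, 0.71), Csf1r (1.45, 0.88) and Itgax (1.60, 0.83). C1qc rests on 5 and 3 counts and Coro1a on 3 and 12 in db/m replicates 2 and 3. The values of Cd68 (-0.20) and Lcp1 (-0.41) were smaller than their standard errors of 0.66 and 0.59.

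Leaving out db/db replicate 3 lowered the median to 0.06 over 19 genes. Without db/db replicate 3 and db/m replicate 1 together, the mouse of each group with the most leukocyte RNA (a choice made after seeing the data), 10 of the 34 genes passed the filter, with a median log2 fold change of 1.46. Of these, 5 were higher in db/db islets at an unadjusted p under 0.05, against 2.38% of all genes in that direction and 7.46% in either, and 0 had an adjusted p under 0.05 in edgeR (0.206% of all genes). With all mice, each db/db mouse lay above db/m replicates 2 and 3 for 11 of the 19 tested genes, and db/m replicate 1 lay above them for 17 of the 19. For 8 of the 19, db/m replicate 1 also lay above all 3 db/db mice. The shares of all tested genes with these orders were not computed, so that these counts have no background beside them.

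**Figure D5:**
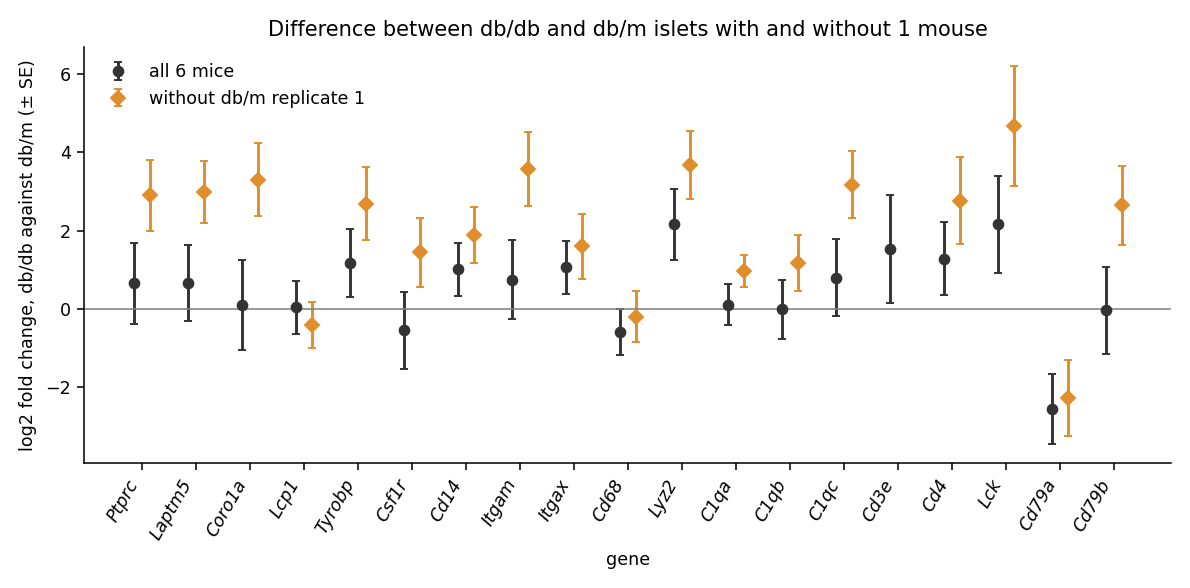
Log2 fold change of db/db against db/m islets (vertical axis, ± standard error) for each of the 19 tested genes, with all 6 mice (black circles) and without db/m replicate 1 (orange diamonds). Cd3e has no diamond because both remaining db/m mice had 0 counts, and the diamonds lie above the circles except for Lcp1, whose value fell from 0.04 to -0.41. The diamonds of Itgam, Cd4 and Lck rest on 0 to 3 counts in each remaining db/m mouse. Few counts also stand behind those of Tyrobp (2 and 4), C1qc (5 and 3), Cd79b (2 and 8) and Coro1a (3 and 12).

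RNA of other cell types also differed between mice of the same group. The 12 stromal genes listed summed to 25.3, 59.7 and 72.4 CPM of the library in db/db replicates 1, 2 and 3, and to 111, 16.0 and 8.99 CPM in db/m replicates 1, 2 and 3. The highest mouse of each group was the one with the most leukocyte RNA. Without db/m replicate 1, 7 of the 11 tested stromal genes were higher in db/db islets at an unadjusted p under 0.05, and 3 had an adjusted p under 0.05 in edgeR, against 4.61% and 0.4% of all tested genes. The 10 endothelial genes summed to 8.88, 29.1 and 27.4 CPM in db/db islets, against 19.8 to 98.2 CPM in db/m islets, with db/m replicate 1 highest. The 7 red blood cell genes summed to 9, 5 and 9 counts in db/db islets, against 55, 8 and 16 in db/m islets, with Hbb-bs, a β-globin, at 4 to 44 counts. The part of stromal, endothelial, blood and β-cell RNA, and of the purity of the islets, in the values of the leukocyte genes was not tested.

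Further leukocyte genes were taken from 7 lists. Of 126 names, 125 were found in the table and 42 passed the filter, and 0 of the 42 had an adjusted p under 0.05 in edgeR. At an unadjusted p under 0.05, 3 were higher in db/db islets (5.04% of all tested genes) and 1 was lower (9.89% of all tested genes), and the median log2 fold change was 0.28. Without db/m replicate 1, 24 of 46 tested genes were higher at an unadjusted p under 0.05, 0 were lower and 0 had an adjusted p under 0.05, against 4.61%, 6.2% and 0.4% of all tested genes, with a median of 2.09. In each of the 7 lists this was the db/m mouse with the highest summed CPM of the library. On the further pan-leukocyte genes it had 161 CPM, against 19.8 and 23.9 CPM in db/m replicates 2 and 3. Leaving it out raises fold changes of such genes, so these counts are no separate support.

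Of 24 further pan-leukocyte genes 17 were tested, and 0 had an unadjusted p under 0.05. Cd53, a tetraspanin of leukocytes, had the smallest p, with 2.57, 0.897 and 6.66 CPM in db/db islets, against 3.08, 0.524 and 0.271 CPM in db/m islets (log2 fold change 1.34, adjusted p = 0.526 from edgeR). Itgb2, the β-chain with which Itgam and Itgax pair, had 2.81, 4.07 and 8.47 CPM in db/db islets, against 4.44, 0.582 and 3.30 CPM in db/m islets (log2 fold change 0.87, adjusted p = 0.563 from edgeR). Both were highest in db/db replicate 3, and their groups overlapped. Without db/m replicate 1 the log2 fold changes were 3.08 for Cd53 and 1.42 for Itgb2.

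Of 38 further macrophage and myeloid genes 16 were tested, 8 with a log2 fold change above 0 and 8 below, with a median of -0.06. The 10 tested myeloid genes among the 34 had 7 above and 3 below, with a median of 0.77. Gpnmb, a glycoprotein of lipid-laden macrophages that other cells also express, had 61, 8 and 40 counts in db/db islets, against 12, 9 and 0 in db/m islets. Its log2 fold change came to 3.01 with a standard error of 1.03 (edgeR, unadjusted p = 0.0170, adjusted p = 0.220). Like Lyz2, it was high in db/db replicates 1 and 3. Csf2ra, the α-chain of the GM-CSF receptor, had 1.93, 3.41 and 2.29 CPM in db/db islets, against 10.8, 5.82 and 2.87 CPM in db/m islets (log2 fold change -1.35, unadjusted p = 0.0206 and adjusted p = 0.241 from edgeR; -0.75 without db/m replicate 1). For Csf1 and Cx3cl1, ligands of Csf1r and Cx3cr1, log2 fold changes were -0.67 and -1.22 (adjusted p = 0.612 and 0.402 from edgeR), and -0.14 and -0.41 without db/m replicate 1.

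Of 25 further genes of T and natural killer cells 5 were tested. Tcf7, a transcription factor of T cells that is also expressed elsewhere, had 42, 146 and 96 counts in db/db islets, against 40, 25 and 49 in db/m islets. Its levels were 3.37, 8.73 and 6.46 CPM in db/db islets, against 1.47, 1.46 and 2.65 CPM in db/m islets. The groups did not overlap on this TMM scale, as for 8.53% of all tested genes (higher in db/db islets). As a share of the library they overlapped, with 42 of 20614531 counts in db/db replicate 1 and 40 of 15641797 in db/m replicate 1. The log2 fold change of Tcf7 came to 1.74 with a standard error of 0.44 (edgeR, unadjusted p = 0.00304, adjusted p = 0.110), and 1.62 without db/m replicate 1.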

How the data were processed

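The authors sequenced 1 ribosome-depleted library of islet RNA per mouse (3 db/db, 3 db/m). The table they deposited holds unnormalized read counts, keyed by gene symbol. The study's methods name TopHat 2.0.14, the submitters' processing notes HISAT2 2.0.4, and both mm10. The counting program, annotation and use of strand are not given in the sources used here. The table was matched to the mice by its column names.

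The fit used edgeR 4.0.16 under R 4.3.3, with filterByExpr, TMM factors and the quasi-likelihood F-test on the 6 mice without covariates. P-values were adjusted by Benjamini-Hochberg across 12760 genes (threshold 0.05). Each standard error is the size of the log2 fold change over the root of its F statistic. DESeq2 1.42.0 was an alternative. The fit was tested on simulated data. Mice of the same replicate number did not deviate together from their group means (correlations over the tested genes -0.53, -0.20 and -0.32). Whether mice of the same number shared a preparation was not tested. Exon lengths and positions came from GENCODE M21, and figures from Python 3.11.15.

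The rule for the 34 genes is a list of names, but this list and the others were chosen with earlier results of these data known. All 34 genes are accounted for. Of the further leukocyte lists, genes with an adjusted p under 0.05 or among the 3 smallest p of a list could be named, and of lists of other cell types the 2 most abundant genes. Counting limits cover counting error only. The p-values measure the spread between 3 mice per group. The result of 1 listed gene is not reported here.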

Additional observations from a re-analysis of the deposited data

How the results depend on the processing

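The number of leukocyte and macrophage genes with an adjusted p under 0.05 was 0 in each setting tried except 1. With every gene of at least 1 count tested it was 4 of 34, beside 3.78% of all genes. Of these, Cd3g and Cd8a had not passed the filter. With library size in place of TMM factors, log2 fold changes turned below 0 for 7 genes: Ptprc (-0.20), Laptm5 (-0.22), Coro1a (-0.80), Lcp1 (-0.37), Itgam (-0.11), C1qa (-0.68) and C1qc (-0.28). The median of the tested genes was then -0.22, beside -0.59 over all genes. Without acinar genes C1qb was 0.0063. Without both db/db replicate 3 and db/m replicate 1, Lcp1 was -0.69, C1qb 0.85 and the median 1.46. With DESeq2, upper-quartile factors, at least 10 counts in at least 3 mice, or without genes of at least 1% of a library, the 19 genes tested kept their direction.

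With the replicate number as a block C1qb was 0.18 and Cd79b 0.97, 17 of 19 genes kept their direction, 1 had an unadjusted p under 0.05, and 16 genes of the whole table had an adjusted p under 0.05. The numbers mark no pairing of the mice in the labels.

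With each mouse left out in turn, log2 fold changes ran from -0.82 to 2.90 for Ptprc, -0.13 to 2.98 for Laptm5, -1.09 to 3.30 for Coro1a, -0.41 to 0.43 for Lcp1, -1.70 to 1.45 for Csf1r, -0.24 to 0.97 for C1qa, -0.47 to 1.17 for C1qb and -1.17 to 2.64 for Cd79b. The median ran from 0.056 (without db/db replicate 3) to 2.77 (without db/m replicate 1). With Cd3e, Cd3g and Cd8a at their lower bounds the latter was 2.61. The log2 ratio of the summed levels ran from -0.75 to 1.85. The genes at an unadjusted p under 0.05 in edgeR were 3 of 27, 1 of 25 and 1 of 19 without db/db replicates 1, 2 and 3. Of all tested genes these were 10.9%, 13.7% and 10.8%. Without db/m replicates 1, 2 and 3 they were 16 of 21, 1 of 27 and 2 of 27, beside 10.8%, 11.2% and 19.8%. In the other settings the number at this threshold was 1 of 18 with DESeq2 (16.4% of all genes) and 1 of 19 with library size (19.1%). It was 9 of 34 with every gene of at least 1 count (12.4%) and 5 of 10 without both mice (7.46%).

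Over the whole table, edgeR called 79 genes at an adjusted p of 0.05. The count was 707 with DESeq2, 21 with library size, 52 with upper-quartile factors, 888 with every gene of at least 1 count and 26 without both mice. It was 17, 10 and 12 without db/db replicates 1, 2 and 3, and 52, 30 and 333 without db/m replicates 1, 2 and 3. The cause of these shifts was not tested. The absence of a call does not show that the groups were alike.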

Other observations

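Antibody genes also differed widely between mice. Ighm and Igkc were chosen after their values were seen. Ighm, the constant region of the IgM heavy chain, had 458, 34 and 630 counts in db/db replicates 1, 2 and 3 and 2043, 87 and 67 in db/m replicates 1, 2 and 3. Igkc, the constant region of the κ light chain, had 518, 21 and 744 counts in db/db islets, against 1980, 65 and 52 in db/m islets. Jchain, the joining chain of secreted antibodies, found under its older symbol Igj, had 45, 0 and 66 counts in db/db islets, against 159, 8 and 8 in db/m islets. All 3 were lowest in db/db replicate 2, where Cd3e, Cd4 and Lck were well above their levels in db/db replicate 1. Log2 fold changes were -0.05 for Ighm, 0.22 for Igkc and 0.22 for Igj (adjusted p = 0.990, 0.951 and 0.950 from edgeR). Without db/m replicate 1 they were 2.65, 3.24 and 2.57.

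Of 9 dendritic cell genes 2 passed the filter. Ccr7, the receptor that guides dendritic cells and T cells to lymph nodes, had 2, 13 and 53 counts in db/db islets, against 54, 2 and 1 in db/m islets (log2 fold change 1.0, adjusted p = 0.738 from edgeR). Irf4, a transcription factor of dendritic and plasma cells, had 8, 15 and 28 counts in db/db islets, against 163, 12 and 1 in db/m islets (log2 fold change -0.99, adjusted p = 0.709 from edgeR). Without db/m replicate 1 the log2 fold change was 1.61 for Irf4, the opposite direction, and 4.06 for Ccr7, which then rests on 1 and 2 counts in db/m islets. Fcer2a, the IgE receptor CD23 of B cells, had 0, 13 and 26 counts in db/db islets, against 74, 0 and 4 in db/m islets. None of the 12 neutrophil or 6 mast cell genes passed the filter, and their summed counts were 10 to 90 and 9 to 25 per mouse.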
